A study of Dugesia japonica with 18 samples.

Results

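The comparison of day 7 with day 5 in Dugesia japonica, a freshwater planarian flatworm that rebuilds a whole body from a piece, covered 6 of the 18 mRNA libraries of the series. The 3 day 7 libraries came from head, trunk and tail, and each was set against the day 5 library of the same fragment. The series has 1 library per fragment at days 0, 1, 3, 5, 7 and 10, each made from poly(A) RNA of a pool of 10 to 20 cut animals. The labels name no strain, genotype or treatment and do not say how long after cutting day 0 was taken. No pool was sequenced again. Fragments therefore took the place of replicates, and the p-values rest on how far fragments departed from a common day effect.

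Planarian regeneration rests on neoblasts, dividing stem cells that carry piwi genes, whose progeny replace missing organs. Signals such as Wnt and its inhibitor Notum mark the tail and head ends. Planarians glide on a ciliated ventral epidermis, and motile cilia also drive fluid in the flame cells of their protonephridia, the excretory tubules. The core of a motile cilium is an axoneme of microtubules bearing dynein arms and radial spokes, and intraflagellar transport proteins carry its parts. In pooled tissue, fewer cells of a type and less RNA per cell cannot be told apart.

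The 6 libraries held 17681644 to 21032138 counts each. The most abundant unigene, an assembled transcript cluster, took 23.9% to 49.1% of the counts, and TMM normalisation factors ran from 0.765 to 1.35. A count of 3 corresponded to 0.114 to 0.220 CPM, the count scaled to library size, and all CPM below are also scaled by the TMM factors. Rhabdomeric opsin, the light receptor of the planarian eye, stood at 65.9 CPM in the day 5 head library against 1.35 in trunk and 0.880 in tail, as the fragment labels imply. The posterior ligand wnt11-2 stood at 0.457 CPM in the head and at 3.32 and 4.33 in trunk and tail.

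Between day 5 and day 7, 12 of 23616 unigenes tested (0.0508%) passed an adjusted p of 0.05 in edgeR's quasi-likelihood test with Benjamini-Hochberg adjustment. Of these, 11 were higher at day 7 (0.0466%) and 1 was lower (0.00423%). Their adjusted p-values lay between 0.0464 and 0.0475, just inside the threshold. Without adjustment, 1716 unigenes (7.27%) had a p under 0.05 and a higher level at day 7, and 1069 (4.53%) a lower one. The adjusted count depended on single libraries. It was 0 without the day 5 head, the day 5 tail, the day 7 trunk or the day 7 tail library, 7 without the day 7 head library, and 210 without the day 5 trunk library.

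Of the 12 unigenes called, 4 carried a protein name. The unigene slc25a-9 (TRINITY_DN24429_c0_g4), a mitochondrial carrier whose nearest SwissProt protein is the aspartate-glutamate carrier Aralar1, stood at 52.9 CPM in head, 68.4 in trunk and 84.0 in tail at day 5. At day 7 it stood at 88.1, 93.0 and 178 CPM, so that every day 7 library lay above every day 5 library. Its log2 fold change was 0.75 ± 0.11 (SE, 3 libraries a day; edgeR, Benjamini-Hochberg adjusted p = 0.0464).

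The unigene slc17a-12 (TRINITY_DN3444_c0_g1) is named for a family of anion transporters, and its nearest SwissProt protein is sialin, a lysosomal sialic acid exporter. Its levels at day 5 were 10.3, 12.1 and 14.5 CPM in head, trunk and tail, and 16.8, 18.1 and 25.4 CPM at day 7. The groups did not overlap, and the log2 fold change was 0.69 ± 0.12 (SE; edgeR, Benjamini-Hochberg adjusted p = 0.0475).

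Methylenetetrahydrofolate reductase (TRINITY_DN8794_c0_g1), which makes the methyl donor methyltetrahydrofolate, stood at 28.0, 40.3 and 50.1 CPM in head, trunk and tail at day 5. At day 7 it stood at 45.1, 61.4 and 66.3 CPM. Each fragment was higher at day 7 but the groups overlapped, since the day 7 head lay below the day 5 tail. The log2 fold change was 0.57 ± 0.10 (SE; edgeR, Benjamini-Hochberg adjusted p = 0.0475). In the tail its highest level was 77.7 CPM at day 10.

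The 1 unigene called lower was a Succinate--CoA ligase (TRINITY_DN1025_c1_g1), a citrate cycle enzyme. It stood at 15.7, 20.5 and 27.6 CPM in head, trunk and tail at day 5 and at 7.44, 11.6 and 11.1 CPM at day 7. All day 7 libraries lay below all day 5 libraries, with a log2 fold change of -1.07 ± 0.18 (SE; edgeR, Benjamini-Hochberg adjusted p = 0.0475). Its nearest SwissProt protein came from a bacterium, and 3 other tested unigenes share the name, so reads could be divided among them.

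The other 8 unigenes called had no protein name, and 7 of them were expressed in all 6 libraries. TRINITY_DN658_c0_g1, the most abundant of these at day 7, stood at 54.9, 93.8 and 85.6 CPM in head, trunk and tail at day 5. It reached 112, 128 and 162 CPM at day 7, above every day 5 library. TRINITY_DN4484_c0_g1 had the steepest change among the 7, from 8.38, 12.5 and 14.1 CPM to 20.5, 17.7 and 34.2 CPM, a log2 fold change of 1.02 ± 0.16 (SE). TRINITY_DN66108_c0_g1 was highest at day 0, at 109, 106 and 117 CPM in head, trunk and tail. It stood at 27.7, 34.3 and 34.5 CPM at day 5 and at 68.9, 56.2 and 52.9 CPM at day 7, still below day 0 in each fragment. These examples were chosen after their values were seen.

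TRINITY_DN32_c0_g1, the remaining unnamed unigene, was at 0 in every head and trunk library. In the tail it was at 0 at day 5 and 14.6 CPM at day 7, at least 66.6-fold higher against 3 counts in the day 5 tail library. It stood at 26.6 and 265 CPM in the tail at days 1 and 3. Its call thus rests on 1 fragment, and its fitted fold change is no bound.

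Day 5 was a low point for most of the unigenes called. In 9 of the 12, day 5 was the lowest of the 6 days in all 3 fragments, a pattern found in 5.03% of all unigenes tested. Among the 1716 with a higher level and an unadjusted p under 0.05, 875 had it. The comparison with day 5 partly fixes this share, because a low day 5 makes day 7 higher, so no test was made of it.

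**Figure D1:**
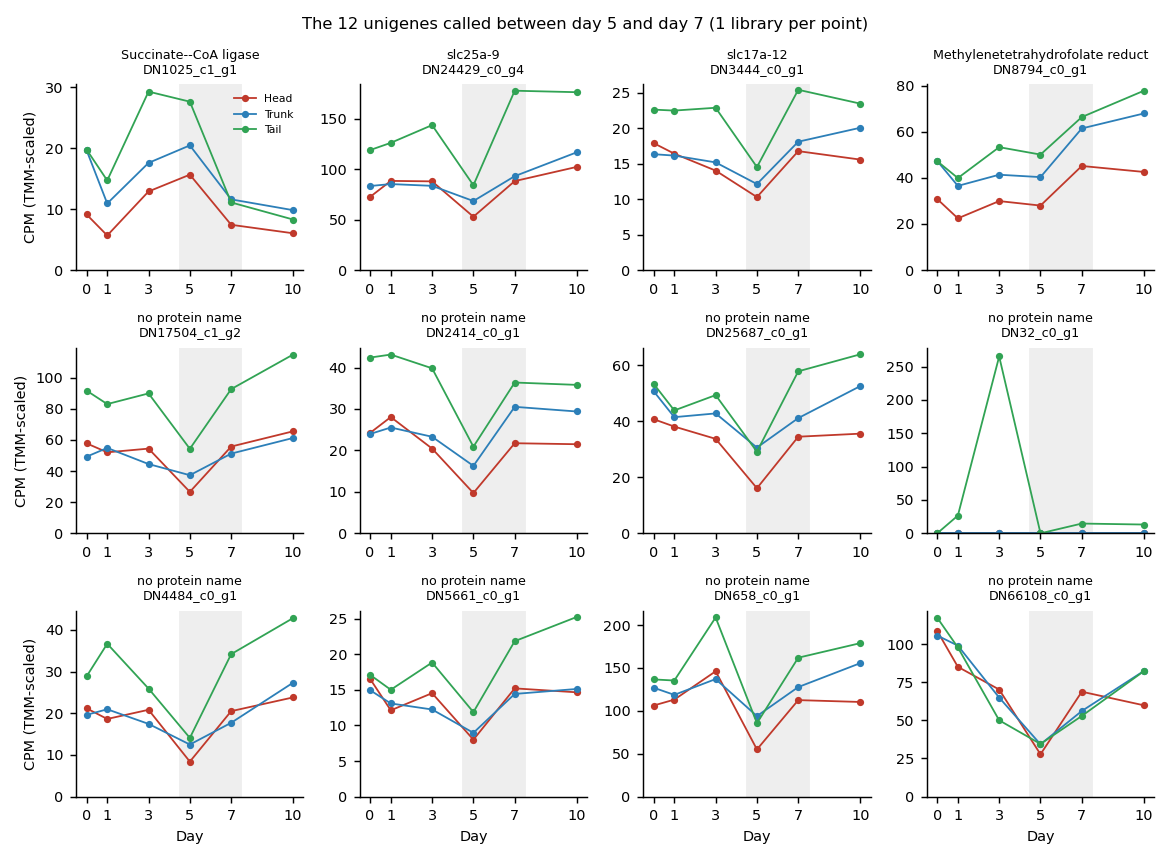
TMM-scaled CPM (vertical axis, starting at 0) by day (horizontal axis) for the 12 unigenes called, with 1 line per fragment and 1 library per point. The shaded band marks days 5 and 7. In 9 panels day 5 is the lowest point of all 3 lines; TRINITY_DN32_c0_g1 is above 0 only in the tail.

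Several of the named unigenes closest to the threshold on the higher side belong to motile cilia, though none of them passed it. Adenylate kinase 8 (TRINITY_DN19666_c0_g1), an axonemal enzyme in mammals, stood at 14.2, 19.1 and 22.2 CPM in head, trunk and tail at day 5 and at 29.8, 24.7 and 43.8 CPM at day 7 (log2 fold change 0.80 ± 0.14, SE; edgeR, Benjamini-Hochberg adjusted p = 0.0562). Coiled-coil domain-containing protein 96 (TRINITY_DN17103_c0_g1), known from cilia, went from 13.1, 14.1 and 22.9 CPM to 23.5, 20.2 and 39.9 CPM. DNAJB13-like protein (TRINITY_DN22717_c0_g1), a radial spoke co-chaperone in mammals, went from 23.4, 27.5 and 32.3 CPM to 38.9, 36.1 and 60.6 CPM. Each fragment was higher at day 7 in all 3 of these unigenes. The days overlapped only in Coiled-coil domain-containing protein 96, where the tail at day 5 lay above the trunk at day 7.

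The ranking also held 2 members of the motile cilia list described below, Cilia- and flagella-associated protein 206 and Tektin-3, and unigenes of other kinds. Guanine nucleotide-binding protein G(s) subunit alpha (TRINITY_DN1469_c0_g2), which couples receptors to adenylate cyclase, had a log2 fold change of 0.62 ± 0.11 (SE; edgeR, Benjamini-Hochberg adjusted p = 0.0531). It stood at 27.6, 35.1 and 62.5 CPM in head, trunk and tail at day 5 and at 52.5, 45.8 and 92.5 CPM at day 7. The protease caspase-3B (TRINITY_DN6722_c0_g2) stood at 35.2, 64.7 and 82.9 CPM at day 5 and at 72.7, 80.0 and 134 CPM at day 7. The actin cross-linker Filamin-A (TRINITY_DN590_c0_g2) stood at 35.9, 33.0 and 83.4 CPM at day 5 and at 65.7, 55.0 and 151 CPM at day 7. In caspase-3B and Filamin-A, too, each fragment was higher at day 7 and neither passed the threshold; other tested unigenes share each of these 3 names.

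The motile cilia list, chosen by protein name, held 101 tested unigenes, none of which was called in either direction. Of these, 59 (58.4%) had an unadjusted p under 0.05 and a higher level at day 7, against 7.27% of all unigenes, and 1 had a lower level, the low-abundance Dynein axonemal heavy chain 5 (TRINITY_DN4472_c1_g2). The median log2 fold change was 0.42, against -0.01 over all unigenes. Day 7 was above day 5 in all 3 fragments for 71 members (70.3%), against 19% of all. All 3 day 7 libraries lay above all 3 day 5 libraries for 23 members (22.8%, against 2.99% of all) and below them for none (0%, against 3.82%). The lowest adjusted p in the list was 0.0624 (edgeR, Benjamini-Hochberg).

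Abundance divided the list. The 72 members with a mean of at least 10 CPM over days 5 and 7 all had log2 fold changes above 0, the lowest being 0.05, with a median of 0.49. Among the 29 below 10 CPM, 12 were above 0 and the median was -0.19. The 10 CPM limit was set after values had been seen, and the matching shares over all unigenes are not given here.

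The groups by structure that follow were made after values were seen, and their members share the same libraries. The cilia- and flagella-associated proteins had 22 of 25 members with an unadjusted p under 0.05 and a higher level (88%, against 7.27% of all unigenes). Their median log2 fold change was 0.55. Cilia- and flagella-associated protein 206 (TRINITY_DN131085_c0_g1), which holds a radial spoke in place in mammals, stood at 20.4, 23.9 and 32.3 CPM in head, trunk and tail at day 5. At day 7 it stood at 37.0, 30.6 and 55.0 CPM, with a log2 fold change of 0.66 ± 0.13 (SE; edgeR, Benjamini-Hochberg adjusted p = 0.0624). Cilia- and flagella-associated protein 91 (TRINITY_DN8935_c0_g1) went from 13.4, 14.5 and 18.9 CPM to 22.2, 24.0 and 37.7 CPM, with no overlap between the days.

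Tektins, filament proteins inside the axonemal microtubules, had 6 of 8 members with an unadjusted p under 0.05 and a higher level (75%, against 7.27% of all unigenes). All day 7 libraries lay above all day 5 libraries for 6 members (75%, against 2.99%). Tektin-3 (TRINITY_DN3512_c0_g1) stood at 12.4, 13.9 and 12.6 CPM in head, trunk and tail at day 5 and at 22.5, 21.9 and 27.9 CPM at day 7. A second Tektin-3 unigene (TRINITY_DN13360_c1_g1) went from 9.53, 12.1 and 7.55 CPM to 18.5, 18.7 and 20.8 CPM, a log2 fold change of 1.005 ± 0.24 (SE). Several unigenes carry this name, so reads could be divided among them. Tektin-2 (TRINITY_DN5373_c0_g1) stood at 47.6, 55.4 and 63.5 CPM at day 5 and at 72.3, 65.3 and 118 CPM at day 7, again with no overlap.

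Radial spokes, which relay signals from the central pair to the dynein arms, had 4 tested members. Radial spoke head protein 3 homolog (TRINITY_DN145238_c1_g1) was the most abundant axonemal unigene described here, at 101, 130 and 150 CPM in head, trunk and tail at day 5 and 186, 166 and 287 CPM at day 7 (log2 fold change 0.72 ± 0.15, SE; edgeR, Benjamini-Hochberg adjusted p = 0.0790). Its day 7 libraries all lay above its day 5 libraries.

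Intraflagellar transport had 9 of 13 members with an unadjusted p under 0.05 and a higher level (69.2%, against 7.27% of all unigenes), and a median log2 fold change of 0.47. Intraflagellar transport protein 52 homolog (TRINITY_DN6054_c0_g2), a core part of the transport complex, went from 11.5, 8.60 and 11.1 CPM in head, trunk and tail to 17.2, 14.4 and 20.1 CPM. Intraflagellar transport protein 88 homolog (TRINITY_DN10100_c0_g1) went from 14.1, 13.9 and 17.7 CPM to 19.6, 17.2 and 24.4 CPM, where the trunk at day 7 lay just below the tail at day 5.

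Dynein arms, the motors of the axoneme, had 15 of 39 members with an unadjusted p under 0.05 and a higher level (38.5%, against 7.27% of all unigenes), the lowest share of these 5 groups, and a median log2 fold change of 0.29. Outer dynein arm protein 1 (TRINITY_DN3432_c0_g1) stood at 26.8, 34.6 and 41.8 CPM at day 5 and at 50.9, 44.4 and 75.7 CPM at day 7. Dynein intermediate chain 2, ciliary (TRINITY_DN10149_c0_g1) went from 21.3, 25.9 and 29.3 CPM to 32.6, 32.3 and 52.4 CPM. The list holds many partial heavy chain unigenes at low counts, among them the member that was lower.

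Over the time course, the median cilia member, as its log2(CPM + 1) minus its own mean over the 18 libraries, was lowest at day 5 in each fragment. In the head it was 0.02 at day 3, -0.55 at day 5, -0.19 at day 7 and 0.01 at day 10. In the trunk the values were -0.10, -0.39, -0.16 and 0.10, and in the tail 0.28, -0.19, 0.39 and 0.52. Day 5 was the lowest of the 6 days in all 3 fragments for 56 of the 101 members (55.4%, against 5.03% of all unigenes). Among all unigenes with a higher level and an unadjusted p under 0.05, 875 of 1716 had this pattern. Because a low day 5 makes day 7 higher, the share is not separate from the rise and was not tested. The median over all unigenes stayed between -0.03 and 0.00 in the 3 day 5 libraries.

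**Figure D2:**
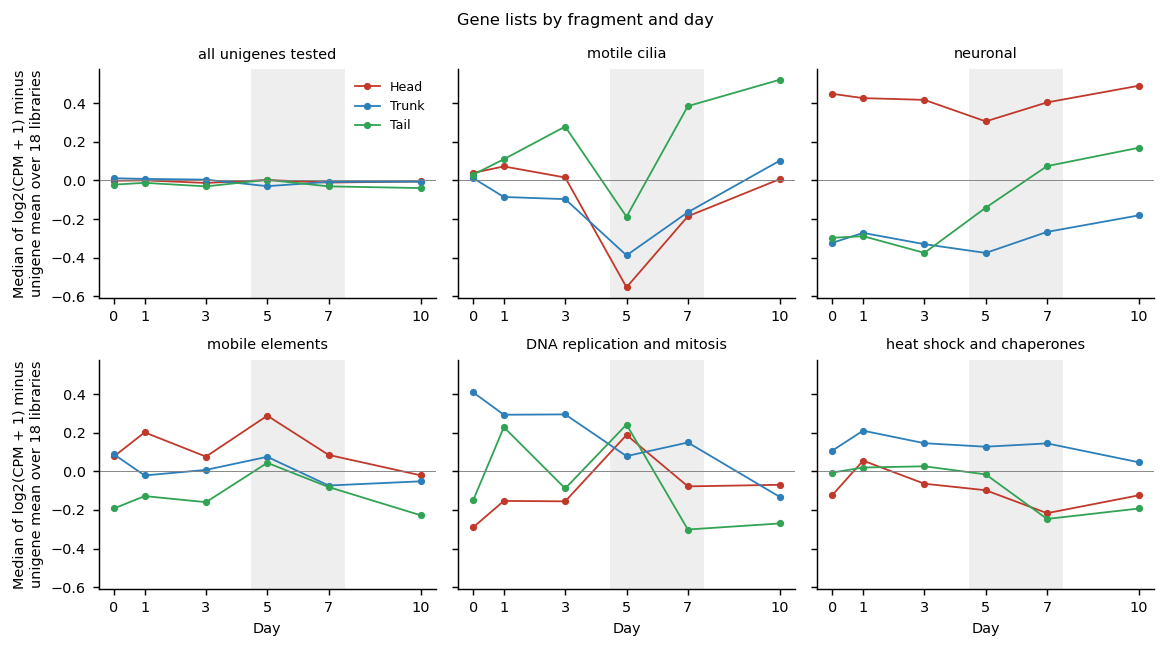
Median over list members of log2(CPM + 1) minus the unigene's mean over 18 libraries (vertical axis), by day (horizontal axis), with 1 line per fragment and 1 library per point; the shaded band marks days 5 and 7. The motile cilia list dips at day 5 in all 3 fragments, to -0.55 in the head, while the median of all unigenes tested stays near 0.

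The neuronal list, which covers channels, receptors and release proteins, had 254 tested members and no call. Its share with an unadjusted p under 0.05 and a higher level, 17 members or 6.69%, was close to the 7.27% of all unigenes. Its median log2 fold change was 0.17, and 89 members (35.0%) were higher at day 7 in all 3 fragments, against 19% of all. Synaptojanin-1 (TRINITY_DN11813_c0_g1), a lipid phosphatase of synaptic vesicle recycling, stood at 46.7, 45.96 and 52.6 CPM in head, trunk and tail at day 5 and at 60.7, 53.9 and 71.8 CPM at day 7. Serotonin receptor-like planarian receptor 4 (TRINITY_DN10573_c0_g1) went from 37.0, 29.5 and 37.6 CPM to 45.8, 37.0 and 55.7 CPM. Neither passed the threshold.

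Within the neuronal list the median log2 fold change was 0.17 for 78 voltage-gated and other ion channels, 0.18 for 97 transmitter receptors, 0.15 for 30 neuropeptides and prohormones and 0.21 for 27 synaptic vesicle and release proteins. The neuropeptides and prohormones had a median log2 ratio of -0.10 in the head, where 7 of 30 were higher, against 0.27 in the trunk and 0.30 in the tail. Only 3 (10%) were higher in all 3 fragments, against 19% of all unigenes. Among the release proteins, Synaptotagmin-1 (TRINITY_DN7748_c0_g1), the calcium sensor of vesicle release, was lower in each fragment, from 17.0, 20.2 and 16.6 CPM to 9.68, 12.4 and 13.1 CPM, with no overlap (log2 fold change -0.62 ± 0.14, SE; edgeR, Benjamini-Hochberg adjusted p = 0.0849). Another tested unigene has the same name.

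The eye list had 26 tested members, no call and a median log2 fold change of 0.27. Its smallest p belonged to a unigene lower at day 7, Homeobox protein SIX6 (TRINITY_DN4167_c0_g1), a transcription factor of eye and brain, at 24.5, 19.3 and 24.1 CPM in head, trunk and tail at day 5 and 19.4, 16.3 and 13.9 CPM at day 7. Opsin-3 (TRINITY_DN2907_c0_g1) was also lower in each fragment, from 1.94, 1.19 and 2.27 CPM to 1.19, 1.04 and 1.77 CPM. Neither passed the test. Rhabdomeric opsin (TRINITY_DN127811_c0_g1) is of interest in trunk and tail, the fragments that carry no eyes when cut. In the trunk it was 0.655 CPM at day 3, 1.35 at day 5, 4.96 at day 7 and 6.57 at day 10, and in the tail 0.241, 0.880, 3.54 and 10.0 CPM. In the head it stood at 65.9 CPM at day 5 and 65.4 at day 7. The common day effect was 1.26 ± 1.30 (log2, SE) and did not pass the test, and with 1 library per fragment and day the difference between fragments was not tested. The glutamate receptor DjGluR1 (TRINITY_DN82_c0_g1), chosen for its change in the trunk, went from 3.26 to 10.2 CPM there, from 8.95 to 28.3 CPM in the tail and from 71.3 to 87.5 CPM in the head.

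The epidermis list, made of cadherins, intermediate filaments and junction proteins, had 87 tested members and no call. Its median log2 fold change was 0.20, and 38 members (43.7%) were higher at day 7 in all 3 fragments, against 19% of all unigenes. The 6 with an unadjusted p under 0.05 and a higher level (6.90%) were near the background of 7.27%. An intermediate filament protein (TRINITY_DN25739_c0_g3) went from 141, 131 and 453 CPM in head, trunk and tail to 255, 205 and 622 CPM.

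Among named unigenes lower at day 7, those with the smallest p-values after the ligase did not pass either. Ubiquitin-associated and SH3 domain-containing protein B (TRINITY_DN12110_c0_g1), a phosphatase that dampens receptor signalling in mammals, stood at 4.61, 3.83 and 4.62 CPM in head, trunk and tail at day 5 and at 1.496, 1.42 and 1.16 CPM at day 7. Its groups did not overlap (log2 fold change -1.69 ± 0.33, SE; edgeR, Benjamini-Hochberg adjusted p = 0.0624). The receptor tyrosine kinase epidermal growth factor receptor Smed-egfr-2 (TRINITY_DN9598_c0_g1) stood at 18.5, 56.2 and 26.6 CPM at day 5 and at 12.7, 30.5 and 13.8 CPM at day 7. It was lower in each fragment, but the trunk at day 7 remained above the head and tail at day 5.

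Several others in this ranking were highest in the trunk at day 5. Mast cell tryptase (TRINITY_DN160_c0_g1), a serine protease name, was 13.9 CPM in the trunk at day 5 and 4.14 at day 7. Urocanate hydratase (TRINITY_DN11621_c0_g1), an enzyme of histidine breakdown, was 43.6 and 22.8 CPM there, and Delta(24)-sterol reductase (TRINITY_DN11100_c0_g1), which completes cholesterol synthesis in mammals, 15.7 and 6.27 CPM. In head and tail these 3 unigenes lay between 2.06 and 13.2 CPM at day 5, and each was lower at day 7. Mast cell tryptase and Delta(24)-sterol reductase each share their name with 1 other tested unigene.

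The intestine and lipid list had 80 tested members, no call and a median log2 fold change of -0.17. Of these, 5 had an unadjusted p under 0.05 and a lower level (6.25%), against 4.53% of all unigenes, and 3 a higher one. The median log2 ratio was -0.04 in the head, -0.12 in the trunk and -0.14 in the tail. Summed CPM of the list went from 5151 to 5221 in the head, from 19422 to 13048 in the trunk and from 7851 to 4797 in the tail. The trunk sum was 12477 at day 3, so its fall from day 5 leans on 1 high day 5 sum. The median member had no such peak. Its log2(CPM + 1) minus its own mean over the 18 libraries was 0.32, 0.22 and 0.25 in the trunk at days 3, 5 and 7. A cathepsin L2 unigene (TRINITY_DN374_c0_g1), a gut protease, went from 37.7, 185 and 19.2 CPM in head, trunk and tail to 23.7, 74.2 and 8.79 CPM. Other cathepsin L2 unigenes exist, and 1 of them (TRINITY_DN29034_c0_g3) was higher in each fragment, from 59.1, 25.03 and 12.9 CPM to 68.7, 41.5 and 17.8 CPM.

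The mobile element list, made of transposases and retrovirus-like proteins, was the largest list on the lower side. None of its 302 tested members was called, while 37 (12.3%) had an unadjusted p under 0.05 and a lower level, against 4.53% of all. The median log2 fold change was -0.23, and 100 members (33.1%) were lower in all 3 fragments, against 16.8% of all. All day 7 libraries lay below all day 5 libraries for 34 members (11.3%, against 3.82%). A Mariner Mos1 transposase (TRINITY_DN11632_c0_g2) went from 24.5, 29.5 and 26.5 CPM to 12.5, 20.3 and 20.8 CPM. Transposable element Tc3 transposase (TRINITY_DN5944_c3_g1) went from 11.1, 12.4 and 6.01 CPM to 7.13, 4.14 and 2.52 CPM. Many unigenes share these names, so reads could be divided among near-identical copies.

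The heat shock and chaperone list had 88 tested members, no call and a median log2 fold change of -0.11. Of these, 11 had an unadjusted p under 0.05 and a lower level (12.5%, against 4.53%), and 29 (33.0%, against 16.8%) were lower in all 3 fragments. The abundant heat shock protein 70-1 (TRINITY_DN204_c0_g1), a folding chaperone, stood at 552, 789 and 543 CPM in head, trunk and tail at day 5 and at 416, 690 and 387 CPM at day 7. On the higher side, 2 members (2.27%, against 7.27% of all unigenes) had an unadjusted p under 0.05. Log2 fold changes in the list ran from -4.75 to 8.24. Heat shock 70 kDa protein (TRINITY_DN6021_c0_g2), which was lower in each fragment, has its nearest protein in a ciliate. It stood at 7.16, 5.44 and 11.7 CPM at day 5 and at 0.220, 0.599 and 0 CPM at day 7.

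DNA replication and mitosis genes had 50 tested members, no call and the lowest median of the 28 lists, -0.27. The fragments did not move alike. The median log2 ratio was -0.24 in the head and -0.54 in the tail but 0.10 in the trunk. Proliferating cell nuclear antigen (TRINITY_DN17885_c0_g1), the sliding clamp of DNA polymerase, stood at 41.5 CPM at day 5 and 29.3 at day 7 in the head. It went from 34.02 to 23.4 CPM in the tail and from 30.7 to 44.2 CPM in the trunk. Structural maintenance of chromosomes protein 2 (TRINITY_DN3015_c1_g1), a condensin subunit, was lower in each, from 22.1, 18.03 and 25.8 CPM in head, trunk and tail to 16.3, 16.3 and 13.4 CPM.

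The stem cell list, with 18 tested members and no call, split in the same way, with median log2 ratios of -0.24 in the head, -0.37 in the tail and 0.13 in the trunk. DjPiwiA (TRINITY_DN2453_c0_g1), a neoblast piwi gene, went from 188 to 124 CPM in the head, from 157 to 105 in the tail and from 168 to 174 in the trunk. DjPiwiB (TRINITY_DN3080_c0_g1) went from 263 to 205 CPM in the head, from 201 to 185 in the tail and from 231 to 265 in the trunk. DjPiwiC (TRINITY_DN643_c0_g1) went from 182 to 161 CPM in the head, from 171 to 159 in the tail and from 193 to 211 in the trunk. These 3, the most abundant of 7 piwi unigenes, were lower in head and tail and higher in trunk, and a difference between single libraries of this size was not tested. Of the other 4, all under 4 CPM, 3 were lower in every fragment. They were Piwi-like protein (TRINITY_DN13637_c0_g1), a second DjPiwiA (TRINITY_DN35174_c0_g1) and Piwi-like protein 1 (TRINITY_DN9094_c0_g1). The last of these went from 0.724, 1.71 and 0.953 CPM to 0.264, 0.545 and 0.341 CPM, with a log2 fold change of -1.53 ± 0.61 (SE), which did not pass the test. The second DjPiwiB (TRINITY_DN19200_c0_g1) was higher in head and trunk and lower in the tail. The fitted sign of DjPiwiB and DjPiwiC changed under some alternatives.

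None of the patterning, wound or m6A unigenes named by rule passed the test. The Wnt inhibitor notum (TRINITY_DN14791_c0_g1) stood at 5.45, 2.07 and 2.71 CPM in head, trunk and tail at day 5 and at 4.75, 1.31 and 2.11 CPM at day 7. The ligand wnt-1 (TRINITY_DN10261_c1_g1) went from 1.75, 1.04 and 1.83 CPM to 2.16, 0.436 and 0.613 CPM. The posterior ligand wnt11-1 (TRINITY_DN4986_c0_g1) went from 2.82, 14.8 and 9.83 CPM to 4.14, 7.79 and 8.45 CPM. The last 2 were higher in the head and lower in trunk and tail at day 7, and the fitted sign of wnt11-1 changed under some alternatives.

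The wound-associated transcription factor early growth response-2 (TRINITY_DN4276_c0_g1) was lower in each fragment, from 2.93, 0.829 and 1.39 CPM to 1.63, 0.490 and 0.681 CPM, with a log2 fold change of -0.86 ± 0.36 (SE). The m6A writer METTL3 (TRINITY_DN30538_c0_g1), which methylates adenosines in mRNA, stood at 11.6, 8.86 and 13.8 CPM at day 5 and 9.90, 10.7 and 11.99 CPM at day 7, and its fitted sign changed under some alternatives. Of the m6A readers, YTH domain-containing family protein 2 (TRINITY_DN7930_c2_g1) went from 32.9, 33.1 and 36.5 CPM to 41.0, 36.6 and 51.0 CPM, higher in each fragment, with a log2 fold change of 0.32 ± 0.12 (SE). Of 2 others with that name, TRINITY_DN6087_c0_g1 was higher in each fragment and TRINITY_DN383_c1_g1 had mixed signs. YTH domain-containing family protein 1 and YTH domain-containing family protein also had mixed signs. YTHDC2 (TRINITY_DN8532_c0_g1) was higher in the head and lower in trunk and tail (log2 fold change -0.25 ± 0.24, SE). The METTL14 subunit was not analysed here.

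Among the other lists, wound-induced genes had 13 of 113 members with an unadjusted p under 0.05 and a higher level (11.5%, against 7.27% of all unigenes). Among them was TNF receptor-associated factor-2-like protein B (TRINITY_DN636_c0_g1), a signalling adaptor, at 22.1, 22.5 and 35.5 CPM at day 5 and 31.8, 29.6 and 61.1 CPM at day 7. The name of this adaptor is shared by 17 other tested unigenes. Apoptosis genes had 6 of 53 (11.3%), and innate immunity genes 4 of 24 (16.7%), among them Interferon-induced GTP-binding protein Mx (TRINITY_DN650_c1_g1), an antiviral GTPase in mammals, at 31.8, 32.6 and 39.6 CPM and then 50.2, 38.9 and 93.3 CPM. Muscle genes had 1 of 43 and a median of 0.00, with medians of 0.21 in the head and -0.30 in the trunk. Cytosolic ribosomal proteins had a median log2 fold change of -0.11, and 12 of 24 were lower in all 3 fragments (50%, against 16.8% of all). All day 7 libraries lay below all day 5 libraries for 5 of them (20.8%, against 3.82%), while 2 had an unadjusted p under 0.05 and a lower level. Of the 24, 3 belonged to the ciliate, microsporidian or virus sets described below, and the median without them was -0.10. A further member, 40S ribosomal protein S25 (TRINITY_DN38178_c3_g1), counts among both the 5 and the 2. Its nearest protein is from Hondaea fermentalgiana, and it went from 1.45, 1.61 and 2.05 CPM to 0.308, 0.109 and 0.749 CPM. Mitochondrial ribosomal proteins were lower in all 3 fragments for 6 of 18 (33.3%) and proteasome proteins for 9 of 28 (32.1%). None of these members was called.

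**Figure D3:**
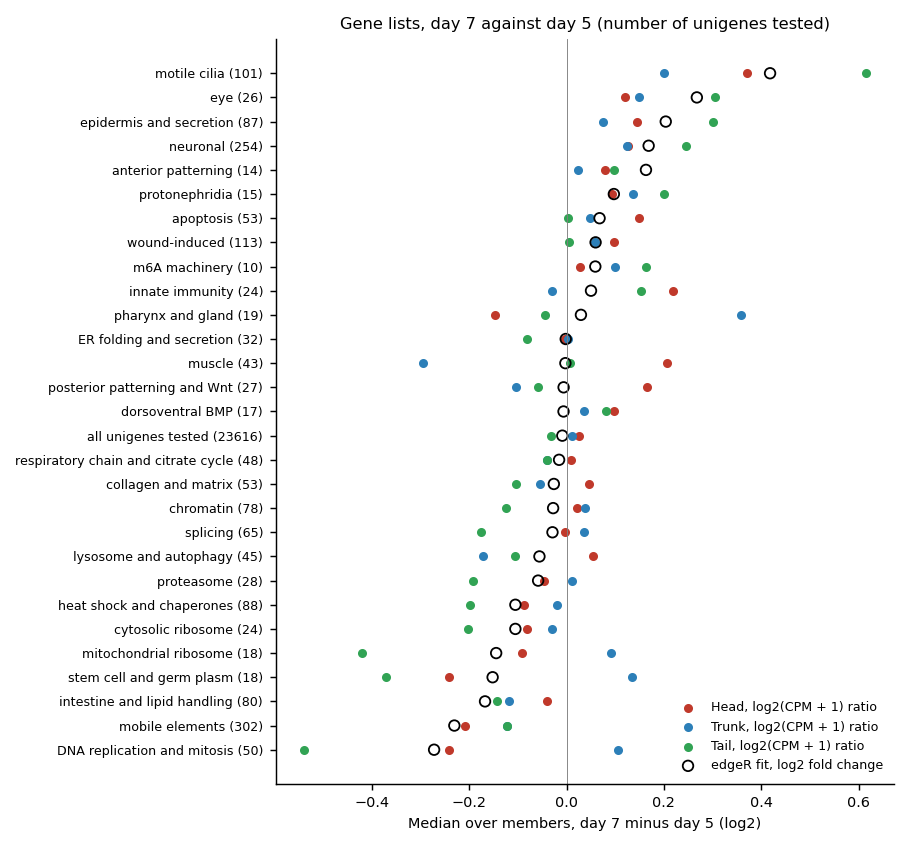
Median over the tested members of each of 28 gene lists, and of all unigenes tested, of the day 7 minus day 5 difference on the log2 scale (horizontal axis). Filled points are the log2(CPM + 1) ratios of the single fragments, open circles the edgeR log2 fold changes, and numbers in brackets count unigenes. Motile cilia lie highest at 0.42, with all 3 fragments above 0; DNA replication and mitosis lie lowest at -0.27, with the trunk above 0.

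The fragments differed in how much they moved. Across 8705 unigenes with a mean of at least 10 CPM, the SD of the log2 ratio was 0.34 in the head, 0.29 in the trunk and 0.45 in the tail. Across these unigenes, which are not independent replicates and share libraries and scaling within a fragment, Pearson's r between fragments was 0.40 for head and tail, 0.33 for trunk and tail and 0.25 for head and trunk. On the log2(CPM + 1) scale, the tail had 351 unigenes at least 2-fold higher (1.49% of those tested) and 634 at least 2-fold lower (2.68%). The head had 241 (1.02%) and 204 (0.864%), and the trunk 176 (0.745%) and 177 (0.749%). In the motile cilia list, 88 of 101 members were above 0 in the head, 84 in the trunk and 82 in the tail, with median ratios of 0.37, 0.20 and 0.62.

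**Figure D4:**
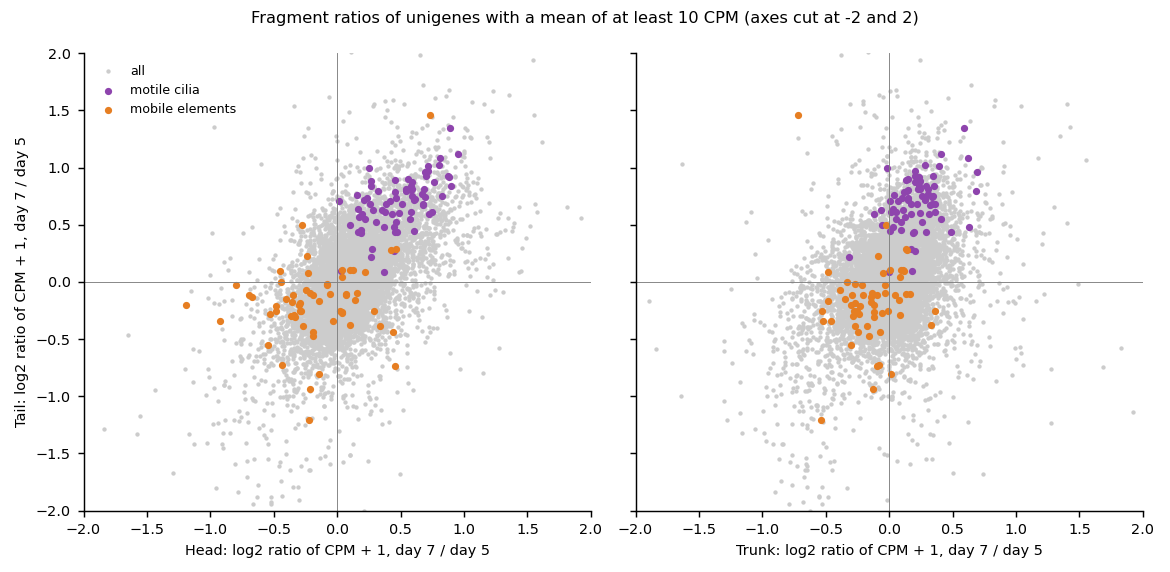
Log2 ratio of CPM + 1 at day 7 over day 5 in the tail (vertical axes) against the head (left) and the trunk (right), 1 point per unigene with a mean of at least 10 CPM; points past the axis ends are not drawn. Motile cilia members (purple) lie mostly in the upper right of both panels, mobile elements (orange) mostly left of and below the centre, with Pearson's r over all points of 0.40 and 0.33.

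Some unigenes had their nearest protein in organisms other than animals. Of 25 tested unigenes nearest to 3 ciliate genera, 17 were lower at day 7 in all 3 fragments and 8 had an unadjusted p under 0.05 and a lower level. The shares over all unigenes were 16.8% and 4.53%. Their median log2 fold change was -1.69, but their summed CPM was slightly higher at day 7, at 111, 137 and 186 in head, trunk and tail at day 5 and 121, 142 and 198 at day 7. Most of that sum was 1 unigene, Mitogen-activated protein kinase kinase 2 (TRINITY_DN1005_c0_g1), at 70.7, 115 and 133 CPM at day 5 and 114, 130 and 186 CPM at day 7. The 11 unigenes nearest to a microsporidian summed to 41.1 CPM in the trunk at day 7 and to 0 in the other 5 libraries. None of the ciliate-, microsporidian- or virus-like unigenes was called. Leaving these 48 out kept all 12 calls, an outcome nearly fixed in advance that says little about the calls. The sets did not cover bacteria, and the Succinate--CoA ligase, nearest to a bacterial protein, was not left out. The part of the ciliate-, microsporidian- and virus-like unigenes in the chaperone values was not tested, though the chaperone list's median without them was -0.11.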

How the data were processed

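The data are mRNA libraries of 3 fragments at 6 days. The deposited table holds whole-number counts per assembled unigene (267235 unigenes); the submitters' processing notes name FastQC, fastp 0.20.0, Bowtie2 and RSEM. The authors' steps beyond this, and the assembly, are not given in the sources used here. Another 18 columns of per-sample values were not used. Protein names come from the table's SwissProt and nr columns. Depth was 17547716 to 21229980 counts per library, and intervals or floors of 3 counts cover counting error only.

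The filter required 1 CPM or more in 3 or more libraries. Counts of all 18 libraries were fitted with edgeR 4.0.16 (R 4.3.3; TMM, robust quasi-likelihood, fragment as block, 10 residual degrees of freedom), contrasting day 7 with day 5, with Benjamini-Hochberg adjustment at 0.05. The fit was run on counts simulated with a single fixed dispersion and no fragment-specific day effects. That run does not gauge the error in these data. The design had not fixed edgeR's newer or older quasi-likelihood method: the newer was used, and both counts of calls had been seen. SE is the log2 fold change divided by the root of F. Fragment ratios use log2(CPM + 1) and carry no test.

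Named unigenes are, per direction, up to 10 called with a protein name and one sign in all 3 fragments, and where fewer pass, those with the smallest p; members of gene lists; and piwi, PCNA, opsin, notum, Wnt, early growth response, METTL and YTH genes whatever their values. Further list members in the text were taken from those with the smallest p and one sign in all 3 fragments, not always in that order, or for their level or fragment pattern, after values were seen. Members and lists were chosen with earlier results of these data known; exclusions of wrongly matched names, the groups within lists and the sets by organism were added after values were seen. Alternatives were other scalings, filters, fits and DESeq2 1.42.0, and leaving out libraries. Nothing in the labels says that libraries came from separate cultures. The p-values rest on departures of fragments from a common day effect. In those departures, real differences between fragments and technical spread cannot be told apart.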

Additional observations from a re-analysis of the deposited data

Results flagged for a closer look

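For 3 unigenes, 1 fragment was at least 4-fold higher and another at least 4-fold lower at day 7; these differences between fragments rest on single libraries and were not tested. The Replicase polyprotein unigene (TRINITY_DN12568_c1_g1), whose nearest protein is from a picornavirus, went from 2.06 to 1311 CPM in the head and from 4245 to 23.2 CPM in the tail, a difference between their log2(CPM + 1) ratios of 16.2. TRINITY_DN1275_c0_g1, which has no protein name, went from 0 to 27.2 CPM in the head and from 45.9 to 0 CPM in the trunk, a difference of 10.36. TRINITY_DN5233_c0_g1, also without a name, went from 37.0 to 0.132 CPM in the head and from 0.147 to 586 CPM in the tail, a difference of 14.07. On other days the tail values of TRINITY_DN5233_c0_g1 were 488 CPM at day 1 and 0.482 CPM at day 3.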

How the results depend on the processing

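The count of 12 calls (11 higher, 1 lower) was not stable. DESeq2 size factors, library totals, the filter of 1 CPM in 6 libraries, all 18 libraries without the fragment block and the 6 libraries without it gave 0 calls, 0 higher and 0 lower; unadjusted p-values under 0.05 numbered 2774, 2386, 2455, 879 and 604. Totals without the most abundant unigene gave 157 (145 higher, 12 lower), the DESeq2 Wald test 437 (386 and 51), no CPM filter 84 (72 and 12), the 6 libraries with the fragment block 68 (19 and 49) and days 3, 5, 7 and 10 alone 103 (73 and 30). Leaving out 1 fragment or 1 library gave 0 to 210 calls, 0 to 190 higher and 0 to 20 lower; without the tail it was 0, without the head 1 and without the trunk 37. Of the alternatives added after seeing the data, the older edgeR method gave 13 calls (12 higher) and the table without ciliate-, microsporidian- and virus-like unigenes 12, each with all 12. Of the 12, the 6 libraries with the fragment block shared 3, the fit without the trunk 6, that without the head 1, that without the day 7 head library 2 and the DESeq2 Wald test 11. Totals without the most abundant unigene, no CPM filter, days 3, 5, 7 and 10 alone and the fit without the day 5 trunk library shared all 12. The cause was not tested.

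No paired analysis by replicate number was possible because the labels carry none; the fragment block is part of the design. Among the unigenes called or ranked by p, TRINITY_DN32_c0_g1 alone changed sign, at 0 without the tail libraries and -2.02 without the day 5 tail library. Of 26 unigenes named whatever their values, none of them called, 10 took both signs over the alternatives, among them wnt11-1, wnt11-2, wnt11-5, DjPiwiB, DjPiwiC and METTL3. Of 21 alternatives, slc25a-9 was called in 9, the Succinate--CoA ligase in 8, and slc17a-12 and Methylenetetrahydrofolate reductase in 7 each, always with the same sign. The median of the motile cilia list stayed between 0.30 and 0.57, that of mobile elements between -0.28 and -0.16 and that of DNA replication and mitosis between -0.43 and -0.15. Cilia members called ranged from 0 to 34 higher, the most in the DESeq2 Wald test, and 0 lower. With 1 library per fragment and day, differences between fragments have no error of their own.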
